A study of Homo sapiens with 4 samples.

Results

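The genes described here are 8 genes of the erythroid membrane and cell surface, GYPB, GYPC, GYPE, EPB42, ANK1, RHAG, SLC4A1 and EPOR. They were taken by gene name from the array annotation, control spots left out, and each had 1 probe among the 14297 gene probes of the array. RNA came from K562, a human erythroleukemia cell line, after 4 h with AC-1041, a fluorinated phthalimide analog of thalidomide, and from control K562 cells. The 2 RNAs shared every one of 4 Agilent arrays under different dyes, and an array's ratio is always given here as treated over control. Treated RNA carried the red dye Cy5 on arrays 1 and 2 and the green dye Cy3 on arrays 3 and 4. The labels name the control cells untreated, while the methods of the study name a DMSO control, and neither ties an array to a separate culture, so that the p-values measure the spread between these arrays only. In a bulk sample, fewer cells with a transcript and less transcript per cell cannot be told apart.

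The red cell membrane is held to a spectrin skeleton by protein complexes. Band 3 (SLC4A1), the anion exchanger, sits in the membrane and is tied to spectrin by ankyrin (ANK1), with the EPB42 protein at the same junction. Glycophorins are sialic acid-rich surface proteins that carry blood group antigens, RHAG is the ammonia-transporting partner that brings Rh proteins to the surface, and the erythropoietin receptor (EPOR) carries the survival and growth signal of early erythroid cells through JAK2 and STAT5. K562 cells have an incomplete erythroid program and are often used as a model of it.

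GYPB and GYPE are closely related genes of 1 family on chromosome 4, so their probes are shown here to let their letters be compared. The 60-base probes of the 4 members that were lower in treated cells read as follows, 5′ to 3′, with capitals in the GYPB and GYPE probes marking the 29 letters that were identical among the 50 letters of their best ungapped alignment.
GYPB: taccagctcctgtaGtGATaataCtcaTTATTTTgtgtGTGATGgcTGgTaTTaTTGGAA
GYPE: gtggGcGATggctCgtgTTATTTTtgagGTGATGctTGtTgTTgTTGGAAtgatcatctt
GYPC: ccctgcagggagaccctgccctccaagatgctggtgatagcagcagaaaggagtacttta
EPB42: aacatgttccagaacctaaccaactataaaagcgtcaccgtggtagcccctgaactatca
The longest run of letters shared by the GYPB and GYPE probes was 7 bases. Whether a probe of this family also binds the transcript of a relative was not tested, and the levels of GYPB and GYPE are uncertain to that extent. On hg18, the build of the array files, the GYPB probe lay at chr4:145138184-145140019 on the minus strand, where its letters were spread over 1836 bases and so crossed an intron. The GYPE probe lay at chr4:145017380-145017439 on the minus strand, the GYPC probe at chr2:127170124-127170183 on the plus strand and the EPB42 probe at chr15:41276798-41276857 on the minus strand.

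The promoters of GYPB and GYPE are shown because both genes were lower in treated cells. Of the 300 bases from 250 before to 50 after the transcription start in RefSeq (GRCh38.p14), the second of 2 entries for GYPB and the entry for GYPE were identical at 287 of 294 aligned positions (97.6%). The 250 bases before the start are given below, from chr4:144019346-144019595 and chr4:143905560-143905809, both on the minus strand, with the letters AGATAA, the site bound by GATA factors, in capitals.
GYPB: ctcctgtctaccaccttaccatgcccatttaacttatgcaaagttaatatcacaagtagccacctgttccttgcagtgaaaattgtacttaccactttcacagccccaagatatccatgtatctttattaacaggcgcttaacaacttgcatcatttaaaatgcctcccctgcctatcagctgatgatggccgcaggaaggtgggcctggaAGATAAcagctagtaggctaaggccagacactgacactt
GYPE: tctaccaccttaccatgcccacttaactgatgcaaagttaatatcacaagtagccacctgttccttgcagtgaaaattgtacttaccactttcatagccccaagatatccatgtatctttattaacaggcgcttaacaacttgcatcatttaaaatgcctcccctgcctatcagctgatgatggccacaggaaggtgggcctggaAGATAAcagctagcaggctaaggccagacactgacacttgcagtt
The match began at position -39 in GYPB and at -45 in GYPE. Of the 6 members with a promoter entry, 5 held AGATAA or TGATAA on either strand, as did 16.31% of all 35116 promoters of this length. AGATAA was found at -208 and -61 in EPB42 and at -78 in EPOR, TGATAA began at -31 in RHAG, and GYPC held neither in this window. The letters CACCC, the core of sites of erythroid Kruppel-type factors, occurred on either strand in 59.87% of all promoters and in 4 of the 6, with GYPB counted by its first entry, since the second, printed above, held none. AGATAA and TGATAA overlap in the letters GATAA, and a match describes the letters alone.

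The members' ratios after treatment for 4 h were small and most of those past the threshold pointed down. Of the 7 members that could be tested, 4 were lower in treated cells (GYPB, GYPC, GYPE and EPB42) and 1 was higher (EPOR) in the average of both dye orientations at an adjusted p under 0.05 (limma, Benjamini-Hochberg over the 8852 probes tested). Over all these probes, 13% were called lower and 24.3% higher by the same rule, and 65.2% of all calls were higher, or 79.9% where the arrays were only centred on their medians. The median log2 ratio of the 7 members was -0.20, beside 0.02 over all probes tested. GYPB, GYPC and GYPE had log2 ratios between -0.60 and -0.52, and EPB42 and EPOR were closer to 0.

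The dye orientations gave different pictures. With treated RNA in Cy5, GYPB (from array 2 alone) and GYPE were lower and EPOR higher, that is 2 lower and 1 higher of 7 members, beside 20.7% lower and 22.2% higher among all probes. With treated RNA in Cy3, GYPC, GYPE and EPB42 were lower, that is 3 lower and 0 higher, beside 25.2% lower and 33.7% higher. GYPE was the only member called lower in each orientation on its own, which 1.9% of all probes were. The median of the members was -0.14 with treated RNA in Cy5 and -0.23 with treated RNA in Cy3, beside 0.03 and 0.04 over all probes. By array, the median of the members measured was -0.06, -0.21, -0.21 and -0.20 on arrays 1 to 4, with all probes tested at a median between 0.00 and 0.05.

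The difference between the orientations was itself past the threshold for 2 of the 7 members, GYPB and GYPC, and it was so for 58.2% of all probes tested. Across probes, arrays of 1 orientation had correlations of 0.81 and 0.94, but arrays of opposite orientation had correlations from -0.29 to -0.12. All 4 arrays lay on 1 slide and were scanned together, with arrays 1 and 2 in row 1 of the slide and arrays 3 and 4 in row 2. The SD of the negative control spots was 226 to 308 on arrays 1 and 2 and 27.8 to 40.5 on arrays 3 and 4. Orientation, slide row and this background spread coincide in the design and cannot be told apart. Of the other cell type markers, all 10 erythroid genes were well above background in control RNA on at least 2 arrays, as were 5 of 8 T and B cell markers (among them CD3D, CD3E, CD79A and CD79B), 4 of 7 of monocytes and granulocytes (CD14, LYZ, FCGR3A and ITGAM), 2 of 7 of megakaryocytes (ITGA2B and GP9) and 1 of 7 of epithelium and fibroblasts (EPCAM), and their part in the results was not tested.

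**Figure D1:**
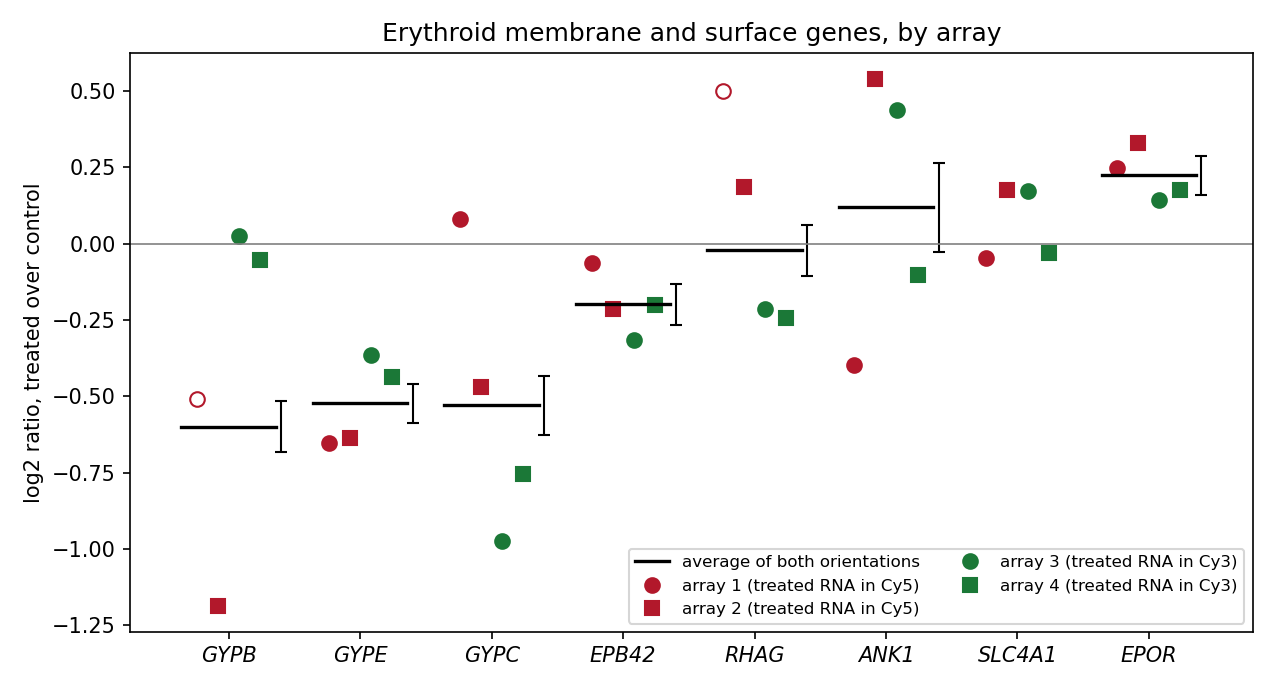
Log2 ratio of treated over control cells (vertical axis) for each of the 8 genes (horizontal axis) on each array. Red symbols are arrays with treated RNA in Cy5 and green symbols arrays with treated RNA in Cy3; open symbols are spots marked as non-uniform and left out of the fit. Black lines give the average of both orientations and the bars beside them its standard error (none for SLC4A1, which was not tested). GYPE and EPB42 lay below 0 and EPOR above 0 on all 4 arrays, while GYPB was at -1.18 on array 2 and stayed near 0 on arrays 3 and 4.

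GYPE encodes glycophorin E, a short member of the glycophorin family. Its log2 ratio was -0.65 and -0.64 on arrays 1 and 2 and -0.37 and -0.44 on arrays 3 and 4. All 4 values lay below 0, and the Cy5 pair lay below the Cy3 pair without overlap. The average was a log2 ratio of -0.52 ± 0.14 (SD, n = 4 arrays; SE 0.06), a level 1.44-fold lower in treated cells, with limma's adjusted p = 4.58e-04. In each orientation alone the log2 ratio was -0.64 with treated RNA in Cy5 (limma, adjusted p = 9.04e-04) and -0.40 with treated RNA in Cy3 (limma, adjusted p = 0.0055). The difference between orientations was -0.24 and did not pass the threshold (limma, adjusted p = 0.13). Of all probes tested, 1.80% had a lower average. The deposited spot signal of treated RNA against control RNA was 12161 against 17374 (array 1), 14576 against 14782 (array 2), 11313 against 14800 (array 3) and 11339 against 17997 (array 4). The treated channel was thus the dimmer one on every array, by little on array 2. Without array 3 or array 4, the Cy3 orientation rests on the other array alone, and its adjusted p rose to 0.072 or 0.13 (limma), while the average kept its call.

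GYPB encodes glycophorin B, which carries the S and s antigens. Its spot on array 1 was marked as non-uniform and left out of the fit, so 3 arrays remained. Array 2 gave a log2 ratio of -1.18, array 3 of 0.02 and array 4 of -0.05. Only array 2 stood clear of 0, so the value for treated RNA in Cy5 is that of 1 array, and the average and the difference between orientations rest on it too. The spread behind the p-values below comes from arrays 3 and 4 and from limma's prior over all probes, with array 2 assumed to vary like them. The average of both orientations was -0.60 (SE 0.08), a level 1.52-fold lower in treated cells, with limma's adjusted p = 0.0014. By orientation, the log2 ratio was -1.18 with treated RNA in Cy5 (limma, adjusted p = 5.85e-04) and -0.01 with treated RNA in Cy3 (limma, adjusted p = 0.90). The difference of -1.17 between the orientations passed the threshold (limma, adjusted p = 8.98e-04). With the marked spot kept, array 1 read -0.51, the value for treated RNA in Cy5 became -0.85 and the average -0.43 (limma, adjusted p = 0.024).

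The deposited signals of GYPB were lower in the treated channel on all 4 arrays. From array 1 to array 4 the treated signal was 34448 against 38656 in the control, 26778 against 37006, 23859 against 28467 and 22068 against 32310. The loess step, which sets the ratio of probes of like brightness to 0 on each array, moved arrays 1 and 2 down and arrays 3 and 4 up from there. Where the arrays were only centred on their medians, GYPB had a log2 ratio of -0.36 with treated RNA in Cy3 (limma, adjusted p = 0.021) and -0.85 with treated RNA in Cy5 (limma, adjusted p = 0.0015). The value near 0 in the Cy3 orientation therefore depends on this step.

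GYPC encodes glycophorin C, which despite its name is unrelated to the other glycophorins and links the membrane to the EPB41 protein of the skeleton. Its log2 ratio was 0.08 and -0.47 on arrays 1 and 2 and -0.97 and -0.76 on arrays 3 and 4. The Cy3 pair lay below the Cy5 pair without overlap, the reverse of GYPE, and array 1 was the only array above 0. The average was -0.53 ± 0.46 (SD, n = 4 arrays; SE 0.10), a level 1.44-fold lower in treated cells, with limma's adjusted p = 0.0034. With treated RNA in Cy3 the log2 ratio was -0.86 (limma, adjusted p = 9.21e-04), a 1.82-fold lower level, and with treated RNA in Cy5 it was -0.19 (limma, adjusted p = 0.28). The difference of 0.67 between the orientations passed the threshold (limma, adjusted p = 0.017). Without array 1 the Cy5 value was -0.47 and passed the threshold (limma, adjusted p = 0.0050), and without array 2 it was 0.08 and did not. The deposited treated signals of 19435 and 19024 on arrays 1 and 2 stood against control signals of 16302 and 17008, whereas those of 10005 and 10934 on arrays 3 and 4 stood against 20313 and 22061. In the unnormalized signals the treated channel was therefore the brighter one in the Cy5 orientation and the dimmer one in the Cy3 orientation.

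**Figure D2:**
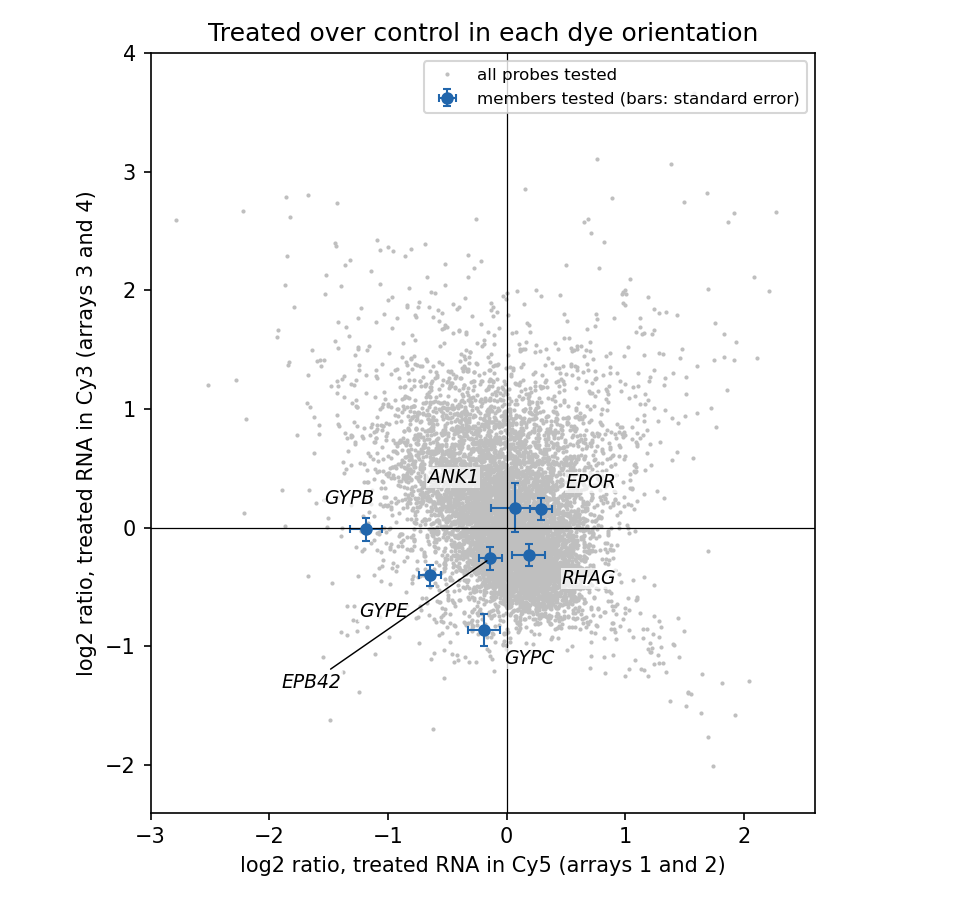
Log2 ratio of treated over control with treated RNA in Cy5 (horizontal axis, arrays 1 and 2) against that with treated RNA in Cy3 (vertical axis, arrays 3 and 4). Grey points are all 8852 probes tested and blue points the 7 members tested, with standard errors. GYPE lay below 0 on both axes (-0.64 and -0.40), GYPB was low on the horizontal axis alone (-1.18 and -0.01), and GYPC mainly on the vertical axis (-0.19 and -0.86).

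EPB42 encodes a peripheral membrane protein that binds band 3 and ankyrin at the skeleton junction. Its log2 ratio was -0.06 and -0.21 on arrays 1 and 2 and -0.32 and -0.20 on arrays 3 and 4. All 4 values lay below 0, as did those of GYPE, and 2 members were thus called lower with every array below 0, beside 6.13% of all probes. The average was -0.20 ± 0.10 (SD, n = 4 arrays; SE 0.07), a level 1.15-fold lower in treated cells, at limma's adjusted p = 0.048. By orientation, it was -0.14 with treated RNA in Cy5 (limma, adjusted p = 0.27) and -0.26 with treated RNA in Cy3 (limma, adjusted p = 0.044). The 95% interval of the average ran from -0.35 to -0.04. The deposited treated signal was 1486 against 1544 in the control, 1450 against 1250, 1299 against 1434 and 1202 against 1349 from array 1 to array 4, so the treated channel was brighter on array 2 before normalization. The call ended under 12 of 14 alternatives, among them leaving out array 2, 3 or 4 (limma, adjusted p = 0.11, 0.26 and 0.17), with the direction unchanged.

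ANK1 encodes ankyrin 1, the link between band 3 and spectrin. Its probe, at chromosome 8 of hg18 from 41631234 to 41631293 on the minus strand, was well above background on only 2 arrays in each channel, so its ratios were less precise. The log2 ratio was -0.40 and 0.54 on arrays 1 and 2 and 0.44 and -0.10 on arrays 3 and 4. Both orientations held 1 array above and 1 below 0, and they overlapped fully. The average was 0.12 ± 0.44 (SD, n = 4 arrays), with a 95% interval from -0.22 to 0.45, and did not pass the threshold (limma, adjusted p = 0.56). The values were 0.07 with treated RNA in Cy5 (limma, adjusted p = 0.81) and 0.17 with treated RNA in Cy3 (limma, adjusted p = 0.50). Without array 1 the average was 0.35 and passed the threshold (limma, adjusted p = 0.0028), and without array 2 it was -0.11 (limma, adjusted p = 0.38). The spot signal lay between 298 and 638 over local backgrounds of 59 to 70.

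SLC4A1 encodes band 3, the defining anion exchanger of mature red cells. Its probe, at chr17:39693325-39693384 of hg18 on the minus strand, was not well above background on any array in either channel, and the gene was not tested. Its spot signal was between 145 and 280, over local backgrounds of 56 to 77. The log2 ratio was -0.05, 0.17, 0.17 and -0.03 on arrays 1 to 4, with 1 array on each side of 0 in each orientation. No fold is given, since both groups have only a bound.

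RHAG encodes the Rh-associated glycoprotein. Its probe lay at chr6:49681470-49682546 of hg18 on the minus strand, its 60 letters spread over 1077 bases and so across an intron. The spot on array 1 was marked as non-uniform and left out. The remaining log2 ratios were 0.18 on array 2, -0.21 on array 3 and -0.24 on array 4, with the sign following the dye. The average was -0.02, with a 95% interval from -0.22 to 0.17 (limma, adjusted p = 0.86). With treated RNA in Cy5 the value of the 1 remaining array, assumed to vary like the others, was 0.18 (limma, adjusted p = 0.31), and with treated RNA in Cy3 it was -0.23 (limma, adjusted p = 0.073). With the marked spot kept, array 1 read 0.50 and the Cy5 value became 0.34 (limma, adjusted p = 0.037).

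In the deposited signals of RHAG, the Cy5 channel was the brighter one on all 4 arrays whichever RNA it held. With treated RNA in Cy5, the Cy5 signals were 119593 and 81931 against Cy3 signals of 57108 and 40516. With control RNA in Cy5, the Cy5 signals were 61197 and 84323 against Cy3 signals of 36270 and 38828. Where the arrays were only centred on their medians, the log2 ratio was 0.64 with treated RNA in Cy5 (limma, adjusted p = 0.010) and -0.90 with treated RNA in Cy3 (limma, adjusted p = 3.47e-05), both past the threshold in opposite directions. The average of the orientations was then -0.13 and did not pass it (limma, adjusted p = 0.39).

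**Figure D3:**
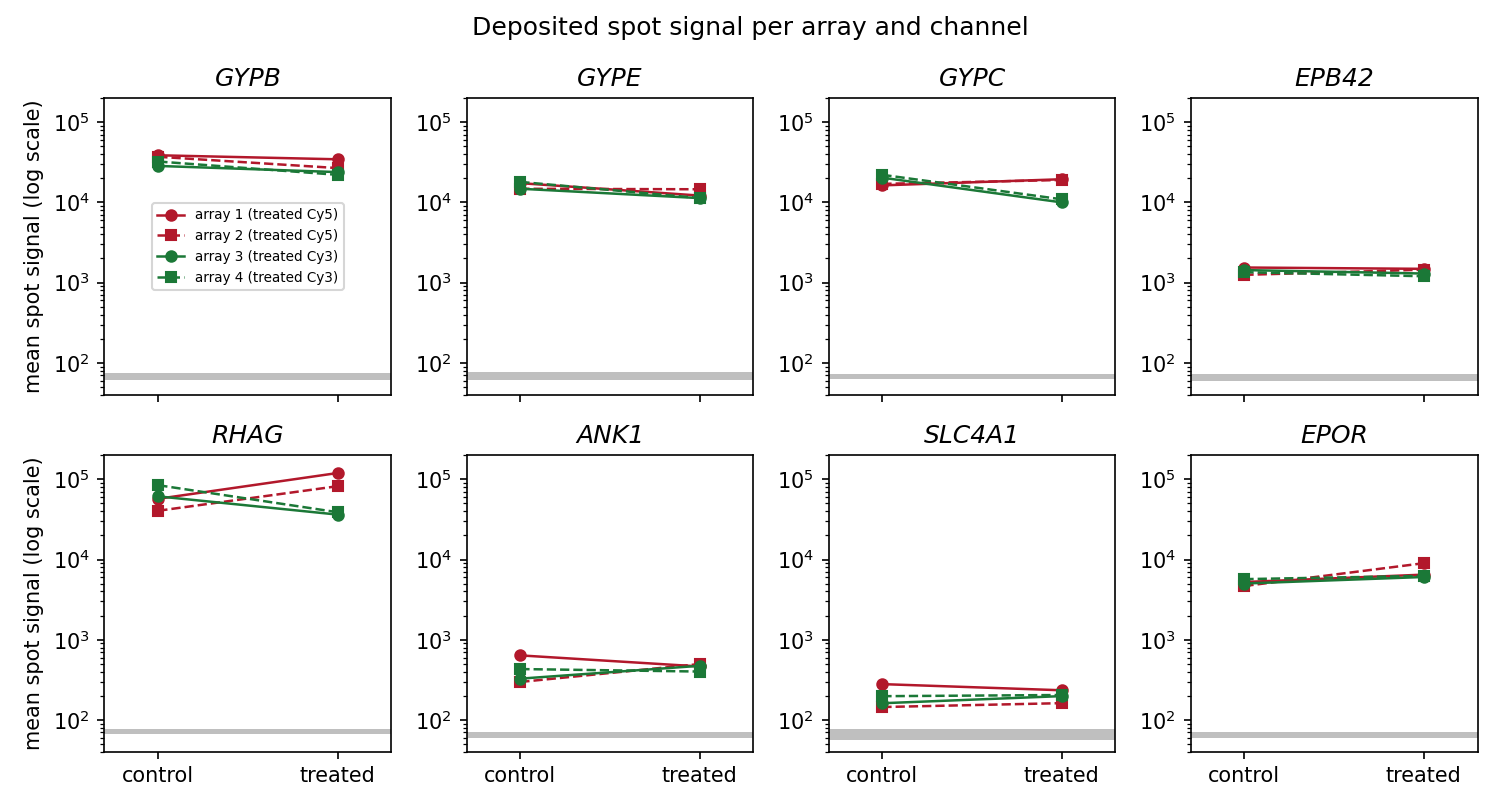
Deposited mean spot signal (vertical axis, log scale, scanner units, before normalization) in the control and the treated channel of each array, 1 panel per gene. Lines join both channels of an array (red, treated RNA in Cy5; green, treated RNA in Cy3; solid with circles, arrays 1 and 3; dashed with squares, arrays 2 and 4), and the grey band is the range of local background. The red and green lines of RHAG cross, rising to 119593 and falling to 36270, those of GYPB all slope down, and SLC4A1 lies at 145 to 280, close to its background band.

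EPOR encodes the erythropoietin receptor. Its probe lay at chr19:11349476-11349535 of hg18 on the minus strand. The log2 ratio was 0.25 and 0.33 on arrays 1 and 2 and 0.14 and 0.17 on arrays 3 and 4. All 4 arrays lay above 0, the only member of which this held, and the Cy5 pair lay above the Cy3 pair. The average was 0.22 ± 0.08 (SD, n = 4 arrays; SE 0.06), a level 1.17-fold higher in treated cells, with limma's adjusted p = 0.026. The log2 ratio was 0.29 with treated RNA in Cy5 (limma, adjusted p = 0.032) and 0.16 with treated RNA in Cy3 (limma, adjusted p = 0.16). The difference of 0.13 between the orientations did not pass the threshold (limma, adjusted p = 0.41). The deposited signal was higher in the treated channel on all 4 arrays, at 6480 against 5241, 8991 against 4675, 6054 against 5020 and 6258 against 5692. The call ended under 6 of 14 alternatives, among them Feature Extraction's own processed signals (0.19, limma, adjusted p = 0.080) and leaving out array 3 or array 4 (limma, adjusted p = 0.14 and 0.19).

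A single gene cannot pass the exact two-sided sign-flip permutation test over 4 arrays, whose smallest p is 0.125. GYPE, EPB42 and EPOR each reached this value (exact permutation p = 0.125), GYPC had an exact permutation p = 0.25 and ANK1 an exact permutation p = 0.63. With 3 arrays the smallest p is 0.25, and GYPB and RHAG each had an exact permutation p = 0.50. The calls above therefore rest on limma's fit, where any difference between the orientations goes into the dye term and the error comes from arrays of like orientation.

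**Figure D4:**
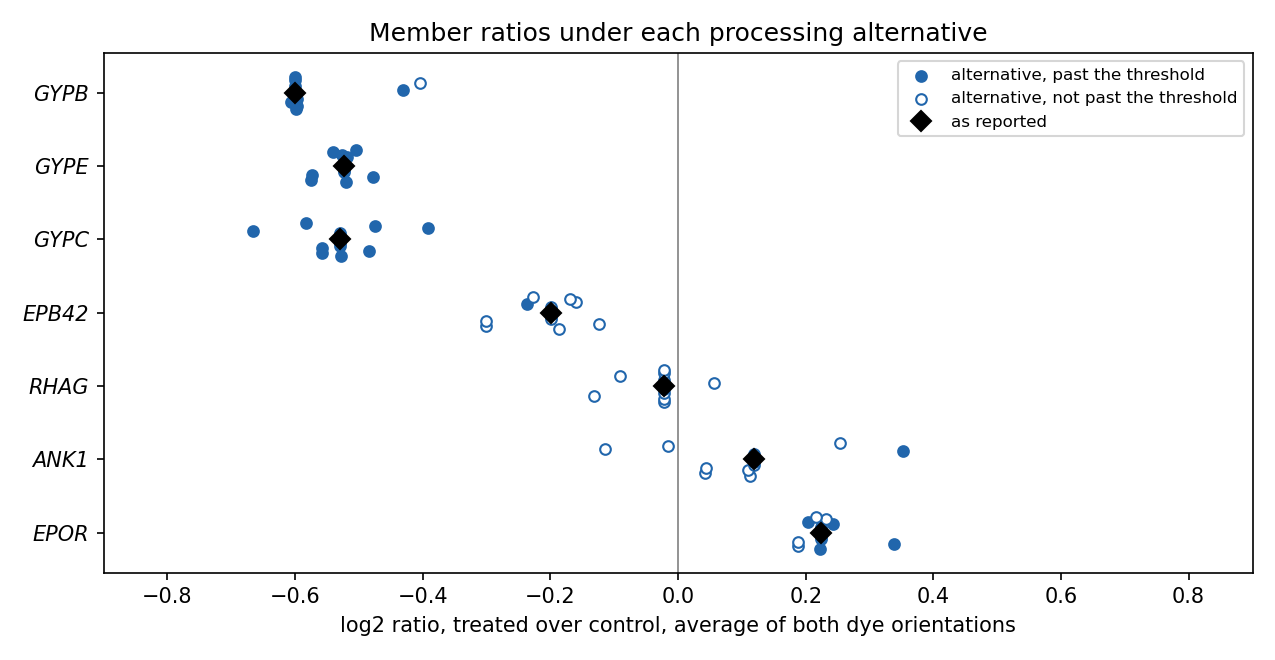
Average log2 ratio of both dye orientations (horizontal axis) for the 7 members tested, as reported (black diamonds) and under up to 14 processing alternatives (circles, spread vertically for legibility; filled where past the adjusted p threshold of that alternative). GYPB, GYPE and GYPC stayed between -0.67 and -0.39 and passed the threshold in every alternative run for them (11 for GYPB, 14 for the others) except the fit without a dye term, while most circles of EPB42 are open.

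Other genes of the red cell membrane and skeleton give the setting of these values. Of 41 such genes on the array, the 8 members left out, 35 could be tested, and treated cells had lower levels of 16 and higher levels of 2. Among all probes tested, 13% were called lower and 24.3% higher. The median of the 35 log2 ratios was -0.13, beside 0.02 over all probes. Among the lower genes were SLC2A1, the glucose transporter of red cells (-0.71; limma, adjusted p = 4.59e-04), and AQP3, a water and glycerol channel (-0.66; limma, adjusted p = 2.73e-04). ADD3, an adducin of the skeleton (0.29), and TPM1, a tropomyosin (0.23), were the 2 that were higher on average. By orientation, ADD3 was called lower with treated RNA in Cy5 (-0.32; limma, adjusted p = 0.035). With treated RNA in Cy3 it was called higher (0.90; limma, adjusted p = 1.92e-04). TPM1 had 0.03 with treated RNA in Cy5 and 0.42 with treated RNA in Cy3. The difference between the orientations passed the threshold for 27 of the 35, beside 58.2% of all probes tested. SLC2A1 had a log2 ratio of -1.50 with treated RNA in Cy5 and 0.08 with treated RNA in Cy3, whereas AQP3 had -0.10 and -1.21, the same 2 patterns as GYPB and GYPC.

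Of 23 genes that act with EPOR or downstream of it, 16 could be tested, 7 were lower and 2 higher, with a median of -0.16. The shares over all probes tested were again 13% lower and 24.3% higher. KIT, the stem cell factor receptor, was lower in both orientations (-0.73 and -0.66; average -0.70, limma, adjusted p = 2.07e-04), as were CISH, a feedback inhibitor of cytokine receptors that STAT5 induces (-0.33 and -0.81; average -0.57, limma, adjusted p = 5.46e-04), and STAT5A (-0.31 and -0.60; average -0.46, limma, adjusted p = 0.0011). The KIT probe was well above background on only 2 arrays in control RNA and on 1 in treated RNA, so its ratios were taken largely near background. The averages of these 3 genes stood opposite in sign to that of EPOR itself. SH2B3, an adaptor that restrains JAK2, was higher on average (0.38, limma, adjusted p = 0.0027) but had -0.13 with treated RNA in Cy5 and 0.89 with treated RNA in Cy3. GAB2, a docking adaptor, had an average of 0.24 (limma, adjusted p = 0.019). This average came from 0.46 with treated RNA in Cy5 and 0.01 with treated RNA in Cy3.

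Most calls among the remaining erythroid groups were lower as well, beside 13% called lower and 24.3% called higher over all probes tested. Of 16 erythroid transcription factors 12 were tested, with 9 lower, 0 higher and a median log2 ratio of -0.61. NFE2 (-1.31; limma, adjusted p = 1.5e-04, array 1 left out as marked), GFI1B (-1.16; limma, adjusted p = 4.45e-05) and LMO2 (-1.03; limma, adjusted p = 7.52e-05) were each lower in both orientations. Of 10 globin genes and partners 9 were tested, with 3 lower (AHSP -0.62, HBD -0.49 and HBM -0.23) and 0 higher. The median of the group, however, was 0.99 with treated RNA in Cy5 and -0.95 with treated RNA in Cy3. In the same order of dyes, AHSP had -0.52 and -0.72, HBD -0.03 and -0.95, and HBM 0.12 and -0.58. All 10 heme synthesis genes were tested, with 6 lower, among them SLC25A37 (-0.35) and PPOX (-0.31), and 1 higher (SLC25A38, 0.36), at a median of -0.22. SLC25A37 had -0.34 with treated RNA in Cy5 and -0.37 with treated RNA in Cy3, and PPOX had -0.11 and -0.52. The members' median of -0.20 thus lay between those of the red cell membrane list and of the heme synthesis list.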

How the data were processed

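For each of 4 two-colour Agilent arrays the authors deposited spot and local background intensities in both channels as Feature Extraction 9.5.1.1 gave them, not normalized. They also deposited a table of log10 ratios, with its sign turned relative to the scanner files on arrays 3 and 4, so that it runs treated over control. From the deposited intensities, background was corrected by normexp (offset 50), and control spots were then removed. Loess (span 0.3) was applied to the log2 ratios of each array, with spots marked as non-uniform or population outliers weighted 0. These marked spots were left out of the fit (8.08%, 2.18%, 2.33% and 1.57% of probes on arrays 1 to 4). A probe stayed in if 1 or both channels were well above background on 2 or more arrays and its spot was unmarked on 3 or more. Some bright probes were therefore not tested because their spots were marked. Treatment and dye were the terms of a limma fit (limma 3.58.1, R 4.3.3) over all 8852 such probes, adjusted by Benjamini-Hochberg, and each orientation was a contrast of that fit. It was tested on simulated data. The members and lists were chosen with earlier results of these data known. All members were named, and of each list up to 3 genes in each direction. Some of the results so chosen are left out of the text. No spot was saturated. The number of arrays limits the precision. The 14 alternatives tried concern background, normalization, filters, threshold, dye term and each array left out.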

Additional observations from a re-analysis of the deposited data

How the results depend on the processing

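No member that passed the threshold changed direction in its average under any alternative run for it (14, but 11 for GYPB), but the counts of calls are small and move easily. The average over both orientations held 1 member called higher and 4 lower. An adjusted p under 0.01, the series table and Feature Extraction's processed signals each left 0 higher, and the fit without a dye term left 0 higher and 0 lower. Leaving out each array in turn gave 0 to 2 higher and 2 to 4 lower. With treated RNA in Cy5, the 1 higher call became 0 with processed signals, the series table or the stricter threshold and 2 with median centring or marked spots kept. Leaving out an array gave 0 to 2 higher and 1 to 3 lower there, and 1 to 4 lower with treated RNA in Cy3. The dye term was called for 1 member with processed signals, the series table or the stricter threshold, and for 0 to 3 without an array. The 5 higher and 41 lower calls of the other erythroid lists became 2 higher with processed signals or the series table, 2 and 23 at the stricter threshold, 0 and 0 without a dye term, and 0 to 6 and 17 to 43 without an array. Over all probes, 2155 were called higher and 1151 lower, but 596 lower with median centring, 52 and 4 without a dye term, 1244 and 444 without array 3 and 1010 and 283 without array 4. Uncalled values that changed sign were the averages of ANK1 without array 2 or 3 and of RHAG with marked spots kept, the Cy5 value of GYPC with median centring or without array 2, and the values of ANK1 in Cy5 with processed signals, the series table or without array 2 and in Cy3 without array 3. Where an array was left out, the lone array of an orientation was assumed to vary like the others. GYPB and RHAG, measured on 3 arrays, could not be fitted without array 2, 3 or 4, so GYPB is missing from the counts there. The cause of these changes was not tested. A mean over a gene's probes was not run, since each member had 1. No further pairing was possible, because each array holds both groups and its ratio already pairs them. Low signal limits ANK1 and SLC4A1.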
